A study of Rattus norvegicus with 16 samples.

Results

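The day from post-natal day 5 to post-natal day 6 was followed in the retina of newborn rats kept in room air. The retina was read on 8 of the 16 arrays of a study of oxygen-induced retinopathy, 4 of day 5 and 4 of day 6, chosen by the sample labels alone. Of 27342 probe sets on the array, 15097 carried 1 gene symbol, and taking 1 probe set per gene left 14324 genes, all of which were tested. The room air arrays form 4 groups of 2: Fischer (F344) rats at day 5, Sprague Dawley (SD) rats at day 5, F344 rats at day 6 and SD rats at day 6. F344 rats are generally known to resist the retinopathy and SD rats to be susceptible. No room air group received any agent or carried any engineered allele per the labels. The 8 other arrays came from litters of both strains and both days that breathed 80% and 21% oxygen in turns of 24 h, starting within 12 h of birth. Every array holds retinal RNA pooled from several rats. The design text speaks of 3 rats from 2 litters, and its wording does not settle whether that describes each pool or both together, so p values measure the spread between these pools. Whether day 5 and day 6 arrays were hybridised together is not given in the sources used here.

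The rat retina is still being built after birth. Progenitor cells divide and leave the cell cycle in a fixed order, with rods, bipolar cells and Muller glia among the last types made, and newborn rods and bipolar cells then switch on the proteins of light detection and of their ribbon synapses. Over the same days blood vessels grow across the inner surface of the retina, led by endothelial tip cells and guided by astrocytes.

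Values were log2 expression levels as deposited, normalized across arrays, so that a difference of 1 is a 2-fold change. Medians of the 8 room air arrays lay between 5.452 and 5.477, and the replicate pools of a group correlated across genes with r between 0.992 and 0.996. Retinal markers bore out the tissue label: 22 of 25 measured rod genes, 13 of 15 bipolar cell genes and all 19 progenitor genes had a mean above the lowest array median. Of markers of neighbouring tissues, 2 of 10 lens genes, 7 of 15 genes of the retinoid cycle and pigment epithelium, 1 of 12 skeletal muscle genes and 2 of 10 erythroid genes did. The mean level of the lens list ranged from 4.75 to 5.25 on day 5 arrays and from 4.75 to 5.44 on day 6 arrays. That of the pigment epithelium list ranged from 6.10 to 6.20 and from 6.13 to 6.51, and their part in the day differences was not tested. Nr2e3, Glul, Pou4f2, Mki67 and Pecam1 had no probe set with a single symbol and were not analysed here.

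Between day 5 and day 6 the genes of cell division fell together, and smaller groups of rod, bipolar cell and synaptic genes rose. With the mean of both strains tested by limma, a linear model with a shared estimate of the spread, 185 of 14324 genes rose and 245 fell at an adjusted p under 0.05. These are 1.29% and 1.71% of all genes, the background for every count of such calls in the mean of both strains below. Of the 185 rises 168, and of the 245 falls 212, were also called in F344 alone, and 0 genes were called in SD alone. A call on the mean does not require a change in each strain. Few changes were large: 3 genes rose by over 2-fold and 27 fell by over 2-fold. At an unadjusted p under 0.05, 1089 genes were higher (7.60%) and 1091 lower (7.62%), and the median change of all genes was 0.02 on the log2 scale. The 4 arrays of day 6 all lay above the 4 of day 5 for 314 genes (2.19%) and all below for 274 (1.91%). The count of calls was 70 (19 higher and 51 lower) with the room air arrays alone and strain as an additive block. It was 92 without SD day 5 replicate 1, 112 without F344 day 6 replicate 2, 136 without F344 day 5 replicate 1, 144 without SD day 6 replicate 2, 185 without F344 day 6 replicate 1 and 676 without F344 day 5 replicate 2.

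**Figure D1:**
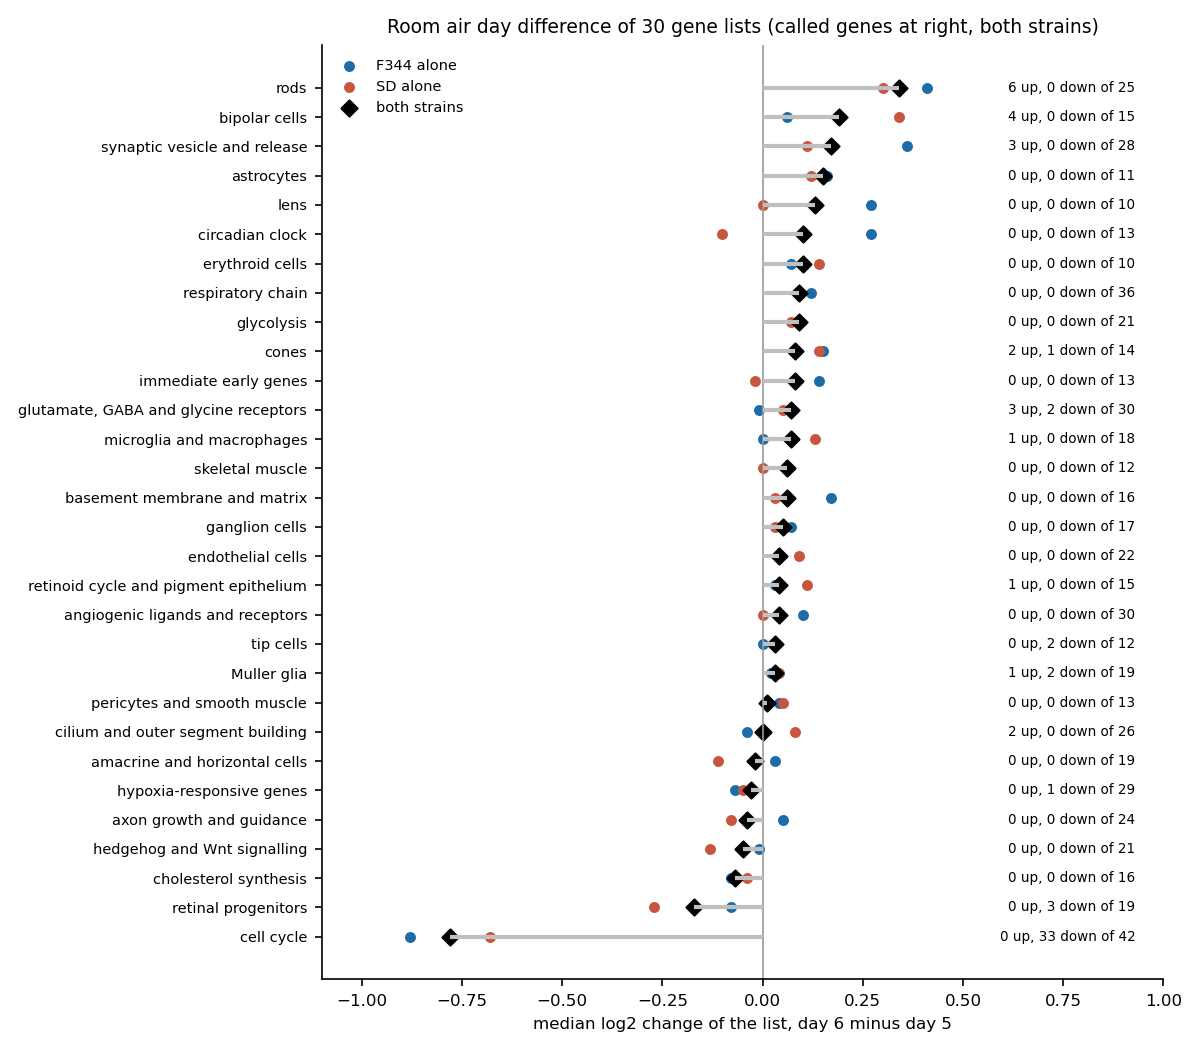
Median log2 change from day 5 to day 6 in room air for 30 gene lists (black diamonds, both strains; blue, F344 alone; red, SD alone), with the number of called members at the right. The cell cycle list lies apart at -0.78 with 33 of 42 genes lower, and rods lie highest at 0.34 with 6 of 25 genes higher.

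Most measured genes of the cell cycle list, which holds genes of DNA replication and of mitosis, fell in room air retina over this single day. Of the 42 measured, 33 fell and 0 rose, against a background of 1.71% lower. All 42 had a change below 0, from -1.32 to -0.05, with a median of -0.78. That median was -0.88 in F344 and -0.68 in SD, against 0.02 and 0.01 for all genes. For 17 of the 42 all 4 day 6 arrays lay below all 4 day 5 arrays, against 1.91% of all genes. In a bulk retina, fewer dividing cells and less RNA of these genes per cell cannot be told apart.

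Promoters of falling genes held a pair of short letter runs, textbook features of cell cycle promoters, more often than all promoters did. The runs were TTTGAA, the core of the cell cycle genes homology region, and CCAAT, the box bound by NF-Y. Each was searched on both strands in the 300 bases from 250 before to 50 after the first listed RefSeq start (GRCr8), which 11806 of the genes tested have. TTTGAA and CCAAT can share at most 1 letter. TTTGAA was in 15.2% of all these promoters, in 38.2% (79 of 207) of those of genes that fell and in 8.67% (13 of 150) of those of genes that rose. CCAAT was in 38.3% of all promoters, 54.6% of those of genes that fell and 34.7% of those of genes that rose. Both runs together were in 6.31% of all promoters, 24.6% of those of genes that fell and 34.4% (11 of 32) of those of the cell cycle list. The median content of G and C was 58.3% in promoters of genes that fell, 63.0% in those of genes that rose and 58.0% in all, and its part was not tested. These shares are descriptions, and a match is not a shown binding site. The 120 bases before the start are printed for Cdk1, the main kinase of entry into mitosis (chr20:19265173-19265292, plus strand), and Top2a, the topoisomerase that untangles chromosomes (chr10:84473094-84473213, minus strand), because both fell and hold both runs. Capitals mark TTTGAA and CCAAT or their reverse complements TTCAAA and ATTGG.
Cdk1: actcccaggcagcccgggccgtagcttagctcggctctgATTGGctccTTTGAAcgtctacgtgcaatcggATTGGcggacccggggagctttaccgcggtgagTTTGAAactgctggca
Top2a: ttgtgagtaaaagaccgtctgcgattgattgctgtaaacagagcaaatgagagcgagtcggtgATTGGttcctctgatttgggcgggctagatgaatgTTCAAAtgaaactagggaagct

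Cdk1 was at 7.28 and 7.62 on the F344 day 5 arrays, 6.73 and 5.91 on the SD day 5 arrays, 6.67 and 6.55 on the F344 day 6 arrays and 5.53 and 5.02 on the SD day 6 arrays. Within each strain both day 6 arrays lay below both day 5 arrays, and SD day 5 replicate 2 lay below the F344 arrays of day 6. The log2 change of Cdk1 was -0.94 ± 0.19 (moderated SE, n = 4 arrays a day, as for all later changes; 1.92-fold lower, adjusted p = 0.016). Top2a was at 10.28 and 10.32 (F344) and 10.20 and 9.18 (SD) on day 5, and at 8.90 and 9.02 (F344) and 9.35 and 8.31 (SD) on day 6. In SD its days overlapped, since replicate 1 of day 6 lay above replicate 2 of day 5. Top2a fell by 1.11 ± 0.21 (2.15-fold, adjusted p = 0.0101). Top2a was no longer called without SD day 5 replicate 1 (adjusted p = 0.057), and Cdk1 no longer without SD day 5 replicate 1, F344 day 6 replicate 2 or SD day 6 replicate 2 (adjusted p up to 0.0995).

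Pbk, a mitotic protein kinase, had the smallest p of all genes. It was at 9.16 and 8.61 (F344) and 8.61 and 8.21 (SD) on day 5, and at 7.51 and 7.19 (F344) and 7.44 and 7.19 (SD) on day 6. No day 6 array reached any day 5 array, and Pbk fell by 1.32 ± 0.14 (2.49-fold, adjusted p = 0.000798). Nusap1, which bundles spindle microtubules, was at 9.35 and 8.90 (F344) and 8.94 and 8.43 (SD) on day 5, and at 7.75 and 7.39 (F344) and 8.01 and 7.19 (SD) on day 6. It too separated the days on all arrays and fell by 1.32 ± 0.17 (2.50-fold, adjusted p = 0.00112). Kif23, a motor of the central spindle, was at 8.32 and 7.96 (F344) and 7.85 and 7.47 (SD) on day 5, and at 7.15 and 6.84 (F344) and 6.80 and 6.46 (SD) on day 6. Its change was -1.15 in F344 and -1.03 in SD, and in their mean it fell by 1.09 ± 0.12 (2.13-fold, adjusted p = 0.000867).

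Pclaf, which binds the replication clamp PCNA, changed by -1.34 ± 0.21 (adjusted p = 0.00305), and Cep55, which acts when daughter cells separate, by -1.25 ± 0.18 (adjusted p = 0.00253). Ect2, the activator of the cleavage furrow, changed by -1.19, the motors Kif4a and Kif2c by -1.17 and -1.11, and Ndc80, which ties kinetochores to microtubules, by -1.16. Fbxo5, an inhibitor of the anaphase-promoting complex, changed by -1.12 and Plk4, the kinase of centriole duplication, by -1.09, each with an adjusted p under 0.05. Bub1 and Bub1b of the spindle checkpoint changed by -1.19 and -1.04, and Tpx2, which builds spindles, by -0.98 (adjusted p = 0.000975).

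Some genes of DNA replication fell and others did not pass the test. Rrm2, which supplies deoxynucleotides, fell by 1.00 ± 0.15 (adjusted p = 0.00305). Cdc6, which loads the replicative helicase, fell by 1.00 ± 0.21 (adjusted p = 0.021), and Mcm6 and Mcm2, helicase subunits, by 0.75 and 0.65. Among the cyclins, Ccnb1 of mitosis changed by -1.03 and Ccna2 by -0.76, while Ccne2 of S phase entry changed by -0.68 and Ccne1 by -0.47. The 9 members that did not pass the test were Mcm5 (-0.82, adjusted p = 0.0509), Cdc20 (-0.68, adjusted p = 0.0529), E2f1 (-0.41, adjusted p = 0.0503), Pcna (-0.36), Rrm1 (-0.24), Mcm7 (-0.21), Tyms (-0.15), Gins2 (-0.07) and Cdt1 (-0.05). Differences between one gene's change and another's were not tested. The count of falling cell cycle genes was 19 without SD day 5 replicate 1, 20 without F344 day 6 replicate 2, 20 without SD day 6 replicate 2 and 15 with the room air arrays alone and strain as an additive block, with 0 rising in each.

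**Figure D2:**
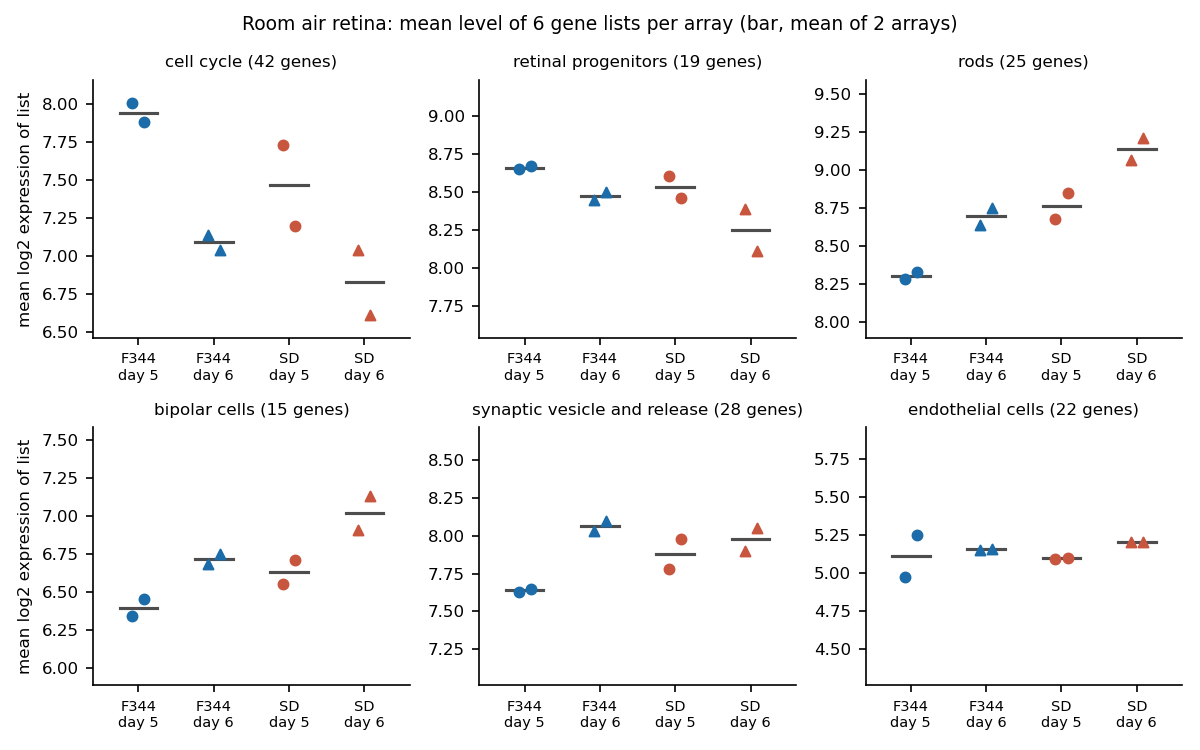
Mean log2 expression of 6 gene lists on each room air array (blue, F344; red, SD; circles, day 5; triangles, day 6; bars, means of 2 arrays; all panels span 1.7 log2 units). The cell cycle list lay at 8.01 and 7.88 and then 7.14 and 7.04 in F344 and at 7.73 and 7.20 and then 7.04 and 6.61 in SD, rods and bipolar cells were higher on day 6, and endothelial genes lay between 4.97 and 5.25.

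Among genes of retinal progenitors, 3 of 19 measured fell and 0 rose (background 1.71% lower), with a median of -0.17. The 3 were Fgf19, Ccnd1 and Hes1. Fgf19, the rodent growth factor long known as Fgf15 and made by dividing progenitors, was at 6.60 and 6.51 (F344) and 6.44 and 5.94 (SD) on day 5, and at 5.35 and 5.15 (F344) and 5.27 and 5.32 (SD) on day 6. All day 6 arrays lay below all day 5 arrays, and it fell by 1.10 ± 0.13 (2.14-fold, adjusted p = 0.000867). On day 6 all arrays of Fgf19 lay below the array medians. Ccnd1, the D-type cyclin of progenitors, fell by 0.48 ± 0.12 (adjusted p = 0.0437), and Hes1, a Notch target that keeps progenitors undifferentiated, by 0.63 ± 0.16 (adjusted p = 0.0468). Sox2, shared by progenitors and Muller glia, changed by -0.36 (adjusted p = 0.161), Notch1 by -0.18 (adjusted p = 0.434) and Six3 by 0.25 (adjusted p = 0.0921). Fgf19 was called in all 16 fits that left out 1 array, Ccnd1 in 6 and Hes1 in 4, with adjusted p up to 0.227 and 0.192.

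Of 25 measured rod genes, 6 rose and 0 fell (background 1.29% higher): Grk1, Guca1b, Tulp1, Nrl, Prph2 and Cngb1. At an unadjusted p under 0.05, 20 of the 25 were higher (background 7.60%), and 24 of 25 had a change above 0, with a median of 0.34, or 0.41 in F344 and 0.30 in SD. The mean level of the list was 8.28 and 8.33 (F344) and 8.68 and 8.85 (SD) on day 5 and 8.64 and 8.75 (F344) and 9.07 and 9.21 (SD) on day 6. In each strain both day 6 arrays exceeded both day 5 arrays, and the SD arrays of day 5 were about level with the F344 arrays of day 6. The count of rising rod genes was 2 without any 1 of F344 day 5 replicate 1, SD day 5 replicate 1, either F344 day 6 array or SD day 6 replicate 2, 2 with strain as an additive block, and 12 without either F344 hyperoxia array of day 6, which enters only through the shared spread.

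TAATCC is the letter run bound by CRX, the transcription factor that switches on photoreceptor genes. It was in 40.9% (9 of 22) of the promoters of the rod list against 6.33% of all promoters, searched as above; its end CC can be the start of a CCAAT. It was in 6.67% (10 of 150) of the promoters of all genes that rose and in 5.31% of those of genes that fell, and no test was made of these shares. The median content of G and C was 51.8% in promoters of the rod list and 58.0% in all promoters, and its part was not tested. The 120 bases before the start are printed for 3 rising genes that hold it, Cngb1 (chr19:9732526-9732645, plus strand), Gucy2f (chrX:110605018-110605137, minus strand) and Trpm1 (chr1:127130566-127130685, plus strand). Capitals mark TAATCC or its reverse complement GGATTA, and in Cngb1 also 1 CCAAT just before the second TAATCC.
Cngb1: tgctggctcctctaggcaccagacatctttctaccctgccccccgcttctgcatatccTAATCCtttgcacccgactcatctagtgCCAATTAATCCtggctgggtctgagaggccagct
Gucy2f: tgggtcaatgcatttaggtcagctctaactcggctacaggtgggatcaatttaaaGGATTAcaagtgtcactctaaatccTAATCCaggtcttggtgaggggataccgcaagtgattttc
Trpm1: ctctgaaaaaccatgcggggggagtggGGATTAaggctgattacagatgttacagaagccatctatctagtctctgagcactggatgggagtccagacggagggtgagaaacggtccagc

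Grk1, a kinase that ends the light response of photoreceptors, was at 5.76 and 5.80 (F344) and 6.65 and 6.89 (SD) on day 5, and at 6.61 and 7.07 (F344) and 7.65 and 7.87 (SD) on day 6. Both strains were higher on day 6, SD from a higher start, and in the mean Grk1 rose by 1.02 ± 0.17 (2.03-fold, adjusted p = 0.00465). Nrl, the factor that sets rod fate, was at 9.41 and 9.58 (F344) and 9.61 and 9.46 (SD) on day 5, and at 10.16 and 10.20 (F344) and 9.83 and 9.83 (SD) on day 6. All day 6 arrays lay above all day 5 arrays, and Nrl rose by 0.49 ± 0.08 (1.41-fold, adjusted p = 0.00525). Gucy2f, a retinal guanylate cyclase outside the list, was at 5.38 and 5.34 (F344) and 5.41 and 5.55 (SD) on day 5, and at 5.83 and 6.14 (F344) and 6.43 and 6.76 (SD) on day 6. It too separated the days on every room air array and rose by 0.87 ± 0.16 (1.83-fold, adjusted p = 0.00761). On day 5 the F344 arrays and SD replicate 1 of Gucy2f lay below the array medians.

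Guca1b, which activates guanylate cyclase when calcium falls, rose by 0.82 ± 0.19 (adjusted p = 0.0324), Tulp1, a protein of traffic to the outer segment, by 0.57 ± 0.13 (adjusted p = 0.0278), Prph2, which shapes the disc rims, by 0.44 ± 0.11 (adjusted p = 0.0446) and Cngb1, a subunit of the rod cation channel, by 0.36 ± 0.08 (adjusted p = 0.0296). Several central rod genes were higher without passing the test: Pde6b, the phosphodiesterase beta subunit, at 0.53 (adjusted p = 0.0586), Gnat1, rod transducin, at 0.48 (adjusted p = 0.124), Sag, rod arrestin, at 0.31 (adjusted p = 0.121) and Crx at 0.23 (adjusted p = 0.177). Cdhr1, a cadherin at the base of the outer segment, rose by 0.68 ± 0.12 (adjusted p = 0.00746), and with Nphp4 (0.34, adjusted p = 0.0459) it made 2 rises and 0 falls among 26 genes of the cilium and of outer segment building, whose median was 0.00. Grk1 and Nrl were called in all 16 fits without 1 array; adjusted p reached 0.0577 for Gucy2f, without SD day 5 replicate 1 or F344 day 6 replicate 2, and 0.163 for Guca1b, 0.162 for Tulp1 and 0.172 for Cngb1.

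Few cone genes changed. Of 14 measured, 2 rose (background 1.29%) and 1 fell (background 1.71%), with a median of 0.08. Rxrg, a nuclear receptor of cones, rose by 0.43 ± 0.10 (adjusted p = 0.0289), and Gnb3, a G protein subunit that cones share with bipolar cells, by 0.44 ± 0.11 (adjusted p = 0.0394). Cngb3, a subunit of the cone channel, was at 7.99 and 7.37 (F344) and 7.45 and 7.49 (SD) on day 5, and at 7.14 and 6.98 (F344) and 6.99 and 6.98 (SD) on day 6. Every day 6 array lay below every day 5 array, and it fell by 0.55 ± 0.11 (1.47-fold, adjusted p = 0.0162). Opn1sw, the short-wavelength opsin, had a log2 difference of 0.25 (adjusted p = 0.153). With strain as an additive block, and without SD day 5 replicate 1, F344 day 6 replicate 2 or SD day 6 replicate 2, 0 cone genes were called.

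Bipolar cells, which carry signals from photoreceptors to the inner retina, held the 2 largest rises among called genes, Scgn and Trpm1. Of 15 measured genes, 4 rose and 0 fell (background 1.29% higher): Scgn, Trpm1, Isl1 and Grm6. The other 11 kept the median at 0.19, and among them Prkca (0.21), Cabp5 (0.15) and Pcp2 (0.19), marks of mature bipolar cells, did not pass the test. Grm6, the glutamate receptor by which ON bipolar cells sense light, was at 7.27 and 7.40 (F344) and 6.67 and 6.54 (SD) on day 5, and at 8.09 and 7.98 (F344) and 7.24 and 7.11 (SD) on day 6. Replicates lay close together and the change was 0.70 in F344 and 0.57 in SD, so that in the mean Grm6 rose by 0.64 ± 0.09 (1.56-fold, adjusted p = 0.00199). Trpm1, the channel that this receptor controls, was at 4.21 and 4.94 (F344) and 5.34 and 6.01 (SD) on day 5, and at 5.66 and 5.93 (F344) and 6.73 and 7.50 (SD) on day 6. On day 5 its F344 arrays and SD replicate 1 lay below the array medians, and Trpm1 rose by 1.33 ± 0.27 (2.52-fold, adjusted p = 0.0155).

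Scgn, a calcium-binding protein of cone bipolar cells, was at 4.36 and 4.38 (F344) and 4.96 and 5.73 (SD) on day 5, and at 5.72 and 6.01 (F344) and 6.09 and 7.30 (SD) on day 6. Its rise was 1.42 ± 0.34 (2.68-fold, adjusted p = 0.0338), and its SD pools of 1 day lay far apart. On day 5 its F344 arrays and SD replicate 1 lay below the array medians. Isl1, a transcription factor of ON bipolar cells that ganglion and some amacrine cells also carry, was at 7.29 and 7.43 (F344) and 7.59 and 8.10 (SD) on day 5, and at 8.13 and 8.20 (F344) and 8.67 and 9.12 (SD) on day 6. All day 6 arrays lay above all day 5 arrays, and Isl1 rose by 0.93 ± 0.22 (1.90-fold, adjusted p = 0.0344). The count of rising bipolar cell genes was 1 without F344 day 5 replicate 1, SD day 5 replicate 1, F344 day 6 replicate 2 or SD day 6 replicate 2, and 2 without F344 day 6 replicate 1 or any SD hyperoxia array. Grm6 was called in all 16 fits without 1 array and Trpm1 in 12 (adjusted p up to 0.0995, lost without F344 day 5 replicate 1, SD day 5 replicate 1, F344 day 6 replicate 2 or SD day 6 replicate 2), but Isl1 in 7 and Scgn in 6, with adjusted p up to 0.178 and 0.173.

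**Figure D3:**
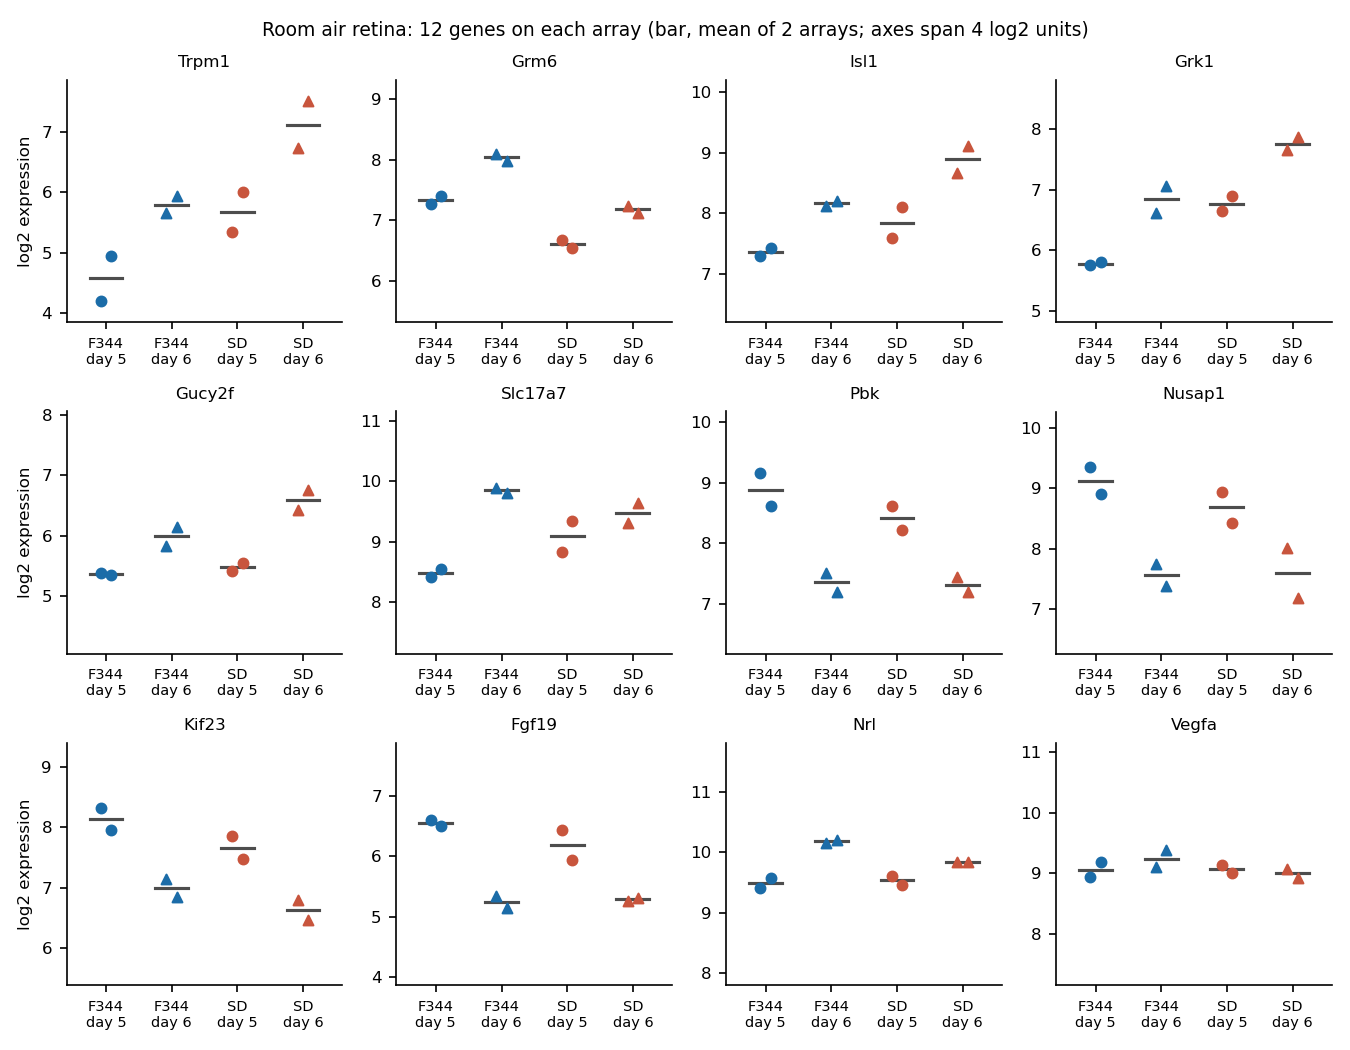
Log2 expression of 12 genes on each room air array (blue, F344; red, SD; circles, day 5; triangles, day 6; bars, means of 2 arrays; every panel spans the same log2 range). Pbk, Nusap1, Kif23 and Fgf19 were lower on day 6 in both strains and Trpm1, Grm6, Isl1, Grk1, Gucy2f and Nrl higher; the change of Slc17a7 was 1.37 in F344 and 0.38 in SD, a difference that was not called, and Vegfa lay between 8.93 and 9.38.

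Among 30 measured receptors for glutamate, GABA and glycine, 3 rose and 2 fell (background 1.29% and 1.71%), with a median of 0.07. Gabrr1, a GABA receptor subunit found on bipolar cells, was at 5.22 and 5.07 (F344) and 5.82 and 5.84 (SD) on day 5, and at 5.81 and 6.33 (F344) and 6.79 and 6.84 (SD) on day 6. Both strains were higher on day 6, and in the mean it rose by 0.95 ± 0.16 (1.93-fold, adjusted p = 0.00515). On day 5 its F344 arrays lay below the array medians. Grm6 is counted here too, and Gabbr1, a subunit of the metabotropic GABA receptor, rose by 0.31 (adjusted p = 0.0424). Gria1, an AMPA receptor subunit, fell by 0.44 ± 0.10 (adjusted p = 0.0267), and Glra2, a glycine receptor subunit of young neurons, by 0.48 ± 0.12 (adjusted p = 0.0408). Gabrr1 was called in all 16 fits without 1 array, Gria1 in 12 and Glra2 in 3 (adjusted p up to 0.151 and 0.173).

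All 28 measured genes of synaptic vesicles and release had a change above 0, with a median of 0.17, and 3 of them rose (background 1.29%) while 0 fell. The median was 0.36 in F344 and 0.11 in SD. Slc17a7, the vesicular glutamate transporter of photoreceptors and bipolar cells, was at 8.41 and 8.54 (F344) and 8.83 and 9.34 (SD) on day 5, and at 9.89 and 9.81 (F344) and 9.30 and 9.64 (SD) on day 6. The F344 days lay far apart and the SD days overlapped, and in the mean Slc17a7 rose by 0.88 ± 0.13 (1.84-fold, adjusted p = 0.00253). Cplx3, the complexin of ribbon synapses, was at 7.81 and 8.06 (F344) and 8.37 and 8.45 (SD) on day 5, and at 9.06 and 8.93 (F344) and 8.91 and 8.71 (SD) on day 6. All day 6 arrays lay above all day 5 arrays, and Cplx3 rose by 0.74 ± 0.11 (1.67-fold, adjusted p = 0.00305). Cacna1f, the calcium channel of the photoreceptor ribbon, rose by 0.46 ± 0.10 (adjusted p = 0.022), and Sv2a, a general vesicle protein, was at 0.36 (adjusted p = 0.0715). The count was 6 without SD day 5 replicate 2. With strain as an additive block 0 of these genes were called, and the adjusted p of Slc17a7 rose to 0.104 and that of Cplx3 to 0.0549 in the alternatives run.

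The 12 leading rises named by rule held 3 genes not yet described. Pth2r, a receptor of the parathyroid hormone family, was at 4.17 and 4.04 (F344) and 5.27 and 5.52 (SD) on day 5, and at 4.57 and 4.81 (F344) and 6.34 and 6.80 (SD) on day 6. It rose by 0.88 ± 0.16 (adjusted p = 0.00742), with all F344 arrays and SD day 5 replicate 1 below the array medians. The step was larger in SD, a difference that was not called. Cds1, an enzyme of phosphoinositide supply, rose by 0.65 ± 0.10 (adjusted p = 0.00259), and Plpp2, a lipid phosphatase, by 0.66 ± 0.15 (adjusted p = 0.0294). Cds1 was called in all 16 fits without 1 array, Pth2r in 14 (adjusted p up to 0.0536, lost without SD day 5 replicate 1 or F344 day 6 replicate 2) and Plpp2 in 9 (up to 0.149).

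The other cell types of the retina showed few calls. Of 19 genes of amacrine and horizontal cells, 17 of ganglion cells and 11 of astrocytes, 0 were called in either direction, with medians of -0.02, 0.05 and 0.15. At an unadjusted p under 0.05, 2 amacrine and horizontal genes were higher and 4 lower, 2 ganglion cell genes higher and 1 lower, and 3 astrocyte genes higher and 1 lower (background 7.60% and 7.62%). Of 19 Muller glia genes, 1 rose and 2 fell. The riser was Abcg1, a cholesterol exporter, at 0.35 (adjusted p = 0.0443). The fallers were Hes1, described above, and Spc25, a kinetochore protein that belongs to cell division by its function, which changed by -0.96 ± 0.14 (adjusted p = 0.00253). Rlbp1, the retinoid carrier of Muller glia, was at 0.03 (adjusted p = 0.95), and Gfap, the filament of astrocytes and stressed glia, at 0.20 (adjusted p = 0.434).

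Few vessel genes were called. Of 22 endothelial genes, 13 of pericytes and smooth muscle and 30 angiogenic ligands and receptors, 0 were called, with medians of 0.04, 0.01 and 0.04. At an unadjusted p under 0.05, 2 endothelial genes were higher (background 7.60%). By the same threshold 1 pericyte gene and 4 angiogenic genes were lower (background 7.62%). Of the 22 endothelial genes, 6 had a mean above the lowest array median. So had 2 of the 13 pericyte and smooth muscle genes and 12 of the 30 angiogenic genes. Vegfa, the main growth signal of retinal vessels, was at 8.94 and 9.18 (F344) and 9.14 and 9.01 (SD) on day 5, and at 9.10 and 9.38 (F344) and 9.08 and 8.93 (SD) on day 6. The days overlapped in both strains, and its change was 0.06 ± 0.09 (adjusted p = 0.85). Of 12 tip cell genes, 2 fell and 0 rose (background 1.71% lower), but 9 had a change above 0 and the median was 0.03. Only 3 of the 12 had a mean above the lowest array median. The fallers were Dll4, the Notch ligand of tip cells, by 0.49 ± 0.10 (adjusted p = 0.0177), and Cxcr4, a chemokine receptor that neurons and progenitors also carry, by 0.45 ± 0.11 (adjusted p = 0.0328). Both calls were lost without F344 day 5 replicate 1, SD day 5 replicate 1 or either F344 day 6 array and with strain as an additive block, with adjusted p up to 0.105 for Dll4 and 0.173 for Cxcr4.

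Of 18 genes of microglia and macrophages, 1 rose, the complement gene C1qc, by 0.32 (adjusted p = 0.0426), a call kept in 2 of 16 fits without 1 array. Of 15 genes of the retinoid cycle and pigment epithelium, 1 rose, the retinol transporter Stra6, by 0.29 (adjusted p = 0.0475), also kept in 2 of 16. Of 29 hypoxia-responsive genes, 1 fell, Ak4, a mitochondrial adenylate kinase, by 0.44 ± 0.10 (adjusted p = 0.0325), and the median was -0.03. In the lists of glycolysis, the respiratory chain, erythroid cells, skeletal muscle, lens, cholesterol synthesis, immediate early genes, the circadian clock, axon growth and guidance, basement membrane and matrix, and hedgehog and Wnt signalling, 0 genes were called, and their medians lay between -0.07 and 0.13. At an unadjusted p under 0.05 the largest count among these was 7 of 21 glycolysis genes higher (background 7.60%). Only 6 of the 18 microglia and macrophage genes and 3 of 13 immediate early genes had a mean above the lowest array median. The lists held 64 of the 430 called genes.

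The day difference was then read in each strain. In F344, 690 genes rose (4.82%) and 503 fell (3.51%). In SD, 0 rose (0%) and 0 fell (0%) in the limma fit, where 722 genes had an unadjusted p under 0.05 and the smallest adjusted p was 0.114; 7 genes were called in SD with array weights. This does not show that SD did not change, since the cell cycle median in SD was -0.68 and that of bipolar cells 0.34, against 0.06 for bipolar cells in F344. The replicate pools of SD differed more in cell cycle level than those of F344, 7.73 against 7.20 on day 5 and 7.04 against 6.61 on day 6. The F344 count was 160 without F344 day 5 replicate 1, 264 without F344 day 6 replicate 1, 80 without F344 day 6 replicate 2 and 777 with the room air arrays alone, and the SD count was 21 without SD day 6 replicate 1 and 9 without either F344 hyperoxia array of day 6.

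The genes called in F344 were then read in SD, whose arrays are separate. The 503 genes that fell in F344, with a median of -0.61, had a median of -0.13 in SD, and 76.1% were below 0 there, against 47.7% of all genes. The 690 genes that rose in F344, with a median of 0.60, had a median of -0.02 in SD, and 42.9% were above 0, against 52.3% of all genes. Their promoters were rich in G and C, with a median of 64.7% against 58.0% for all genes and 57.7% for the genes that fell in F344; the part of base composition in these rises was not tested. Leading F344 rises beside Slc17a7 were C2cd2l, a lipid transfer protein, at 1.09 (0.24 in SD), and Rtn4rl2, a Nogo receptor family member, at 1.10 (0.25 in SD). Among the smallest p in SD, none of them called, were Sapcd1 (-0.98, against -0.35 in F344), Tacc3 of the spindle (-1.02, against -1.04) and Slc14a1, a urea transporter (0.55, against 0.31).

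The difference between strains was itself tested, and 1 gene was called with a higher change in SD (0.00698%) and 7 with a lower one (0.0489%), all 8 at an adjusted p of 0.0422. Ptov1, an adaptor of transcription, shows the pattern. It was at 7.53 and 7.86 (F344) and 7.49 and 7.67 (SD) on day 5, and at 8.66 and 8.72 (F344) and 7.40 and 7.16 (SD) on day 6. Only the F344 arrays of day 6 stood apart, and the difference, SD minus F344, was -1.30 ± 0.19. The mean of Ptov1 in the F344 hyperoxia groups was 8.25 on day 5 and 8.35 on day 6, between the F344 room air days. Irf2bpl (-1.43), Prelid1 (-1.09), Fibp (-1.06), Ttc9b (-1.02), Plbd2 (-1.01) and Pkdcc (-0.93) had the same direction, and Nsrp1, a splicing factor, the opposite one (1.03). The count was 0 with the room air arrays alone, 0 with arrays centred on their medians, 0 with every probe set tested, 181 without SD day 5 replicate 1, 140 without either F344 hyperoxia array of day 6, 4 without F344 day 5 replicate 2, 2 without SD day 6 replicate 1, and 0 without any other single array. No cell cycle, rod or bipolar cell gene was among the 8.

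**Figure D4:**
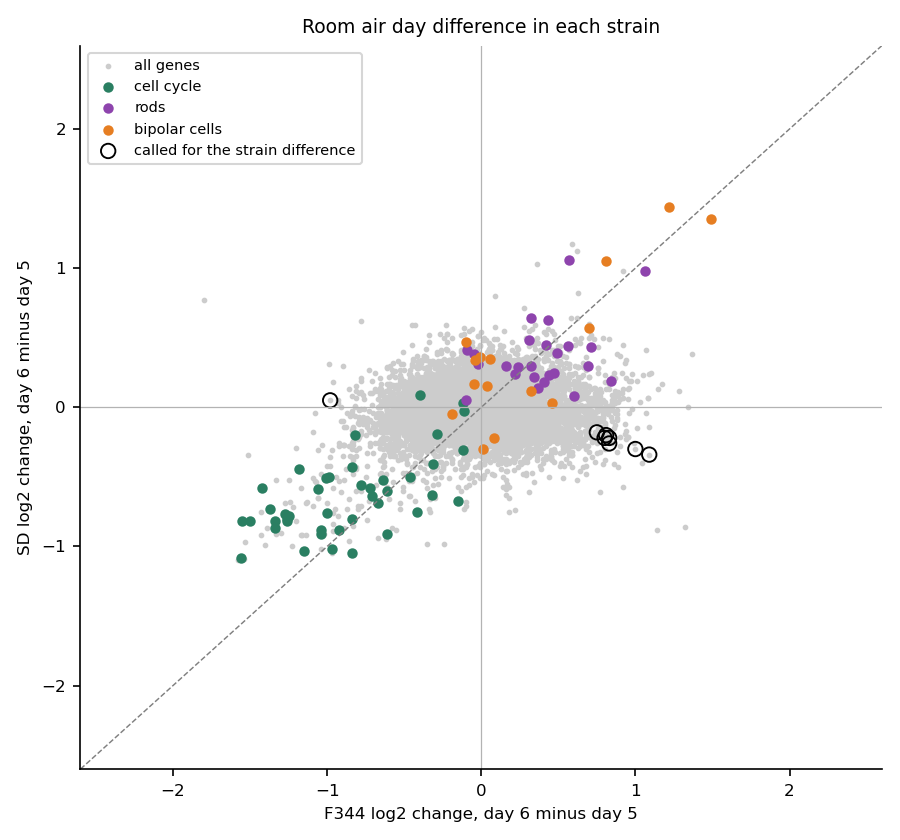
Log2 change from day 5 to day 6 in F344 (x axis) and SD (y axis) for 14324 genes, with cell cycle, rod and bipolar cell genes coloured and the 8 genes called for the strain difference circled. Cell cycle genes lie low in both strains (medians -0.88 and -0.68), and the grey cloud of all genes is wider along the F344 axis.

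The difference between the same days under cyclic hyperoxia was set beside that in room air, to see which room air changes also occurred there. Oxygen in the cyclic groups switched in turns of 24 h, so day 5 and day 6 fall in different turns. Age and the turn of oxygen cannot be told apart in the hyperoxia difference taken alone. The median of the cell cycle list was -0.78 in room air and -1.03 under hyperoxia, and that of the rod list 0.34 and 0.46. With the room air and the hyperoxia arrays fitted separately, 128 genes fell in room air and 346 under hyperoxia, and 103 fell in both, 80.5% of the first and 29.8% of the second. Of all genes 2.42% fell under hyperoxia, and 124 of the 128 had a change below 0 there. In the other direction 86 genes rose in room air and 258 under hyperoxia, and 25 rose in both, 29.1% and 9.69%. Of all genes 1.80% rose under hyperoxia, and 80 of the 86 had a change above 0 there, with a median of 0.29 against 0.52 in room air. Among named rises, Trpm1 changed by 1.33 in room air and 1.51 under hyperoxia and Grk1 by 1.02 and 1.00, while Cplx3 changed by 0.74 and 0.14 and Slc17a7 by 0.88 and 0.37.

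Tested directly, the room air change was higher than the hyperoxia change for 0 genes (0%) and lower for 26 (0.182%). All 26 rose between the days of cyclic hyperoxia, with a median of 1.04. Within the hyperoxia arrays alone, age and the turn of oxygen cannot be told apart. The room air arrays cover the same ages without turns of oxygen. In room air the 26 stayed between -0.44 and 0.33 with a median of -0.09. Of the 26, 12 are in the hypoxia-responsive list. Egln3, an oxygen-sensing hydroxylase, changed by -0.08 in room air and 1.75 under hyperoxia, a difference of -1.83 ± 0.15 (adjusted p = 1.39e-05). Ak4 fell in room air (-0.44) and rose under hyperoxia (1.38), and Vegfa changed by 0.06 and 1.15. Pdk1, a kinase that limits mitochondrial use of pyruvate, changed by -0.12 and 1.13, and Ankrd37 by 0.00 and 1.44. None of the genes of the cell cycle, rod, cone, bipolar cell or synaptic lists was called for this difference. The count was 66, of which 21 were higher in room air, without F344 hyperoxia day 6 replicate 1.

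**Figure D5:**
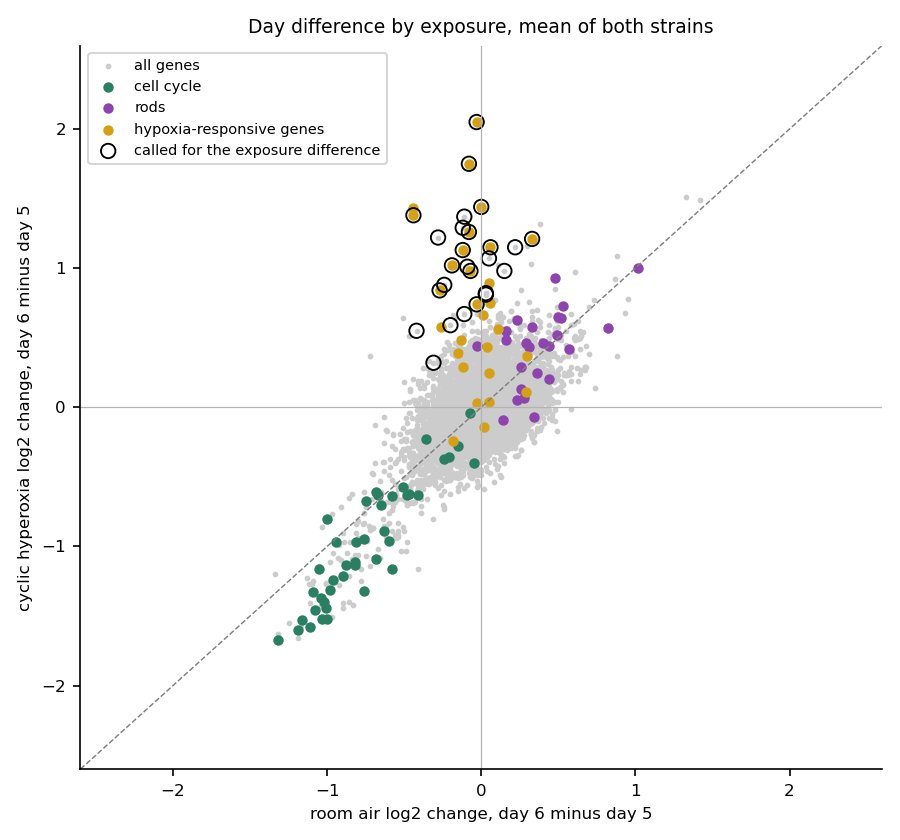
Log2 change from day 5 to day 6 in room air (x axis) and under cyclic hyperoxia (y axis), each the mean of both strains, for 14324 genes; cell cycle, rod and hypoxia-responsive genes are coloured and the 26 genes called for the exposure difference circled. The circled genes stand near 0 in room air and up to 2.05 under hyperoxia, while cell cycle genes lie low on both axes.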

How the data were processed

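Total retinal RNA was hybridised to single-colour Affymetrix whole-transcript arrays, per the labels' protocols. The deposited values are log2 expression levels of 27342 probe sets, made with Partek 6.4 and RMA per the submitters' processing notes. RMA normalizes across arrays, so a change shared by most transcripts is removed. Scanner files were not analysed here. Precision is limited by how few arrays there are.

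Probe sets with several symbols (323) or none listed (11922) were left out; 15067 were renamed through RefSeq (GRCr8) and 30 were not. Where a gene had several probe sets (499 genes), the one of highest mean was used. Limma 3.58.1 (R 4.3.3) fitted 1 mean per group to all 16 arrays, with 8 residual and 7.41 prior degrees of freedom. The room air day difference was the mean of both strains, which takes strain out as a block. P values were adjusted by Benjamini-Hochberg over 14324 genes and called under 0.05. The script was tested on simulated data.

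The arrays were taken by their labels; the choice of this day comparison and of the 30 gene lists was made with earlier results of these data known. Named genes are the 12 largest called rises and falls whose days did not overlap within either strain, the 4 smallest p values of each list with a call, a fixed set of markers, and the 4 smallest p values each way of the other contrasts; further members of the lists are examples chosen after their values were seen. Alternatives covered the arrays fitted, the replicate block, normalization, dim genes, probe set choice, empirical Bayes settings, array weights and each array left out. The separate fits of the room air and hyperoxia arrays were paired for overlap after seeing the data. Promoter sequences are from RefSeq.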

Additional observations from a re-analysis of the deposited data

Results flagged for a closer look

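For 8 genes the room air day difference itself differed between strains in limma's test (SD minus F344). The differences were -1.30 for Ptov1, -1.43 for Irf2bpl, -0.93 for Pkdcc, -1.09 for Prelid1, -1.01 for Plbd2, -1.02 for Ttc9b, -1.06 for Fibp and 1.03 for Nsrp1.

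For 26 genes the day difference differed between room air and cyclic hyperoxia (room air minus hyperoxia). Under cyclic hyperoxia the days also differ in the turn of oxygen. Of the 26 genes, 12 are on the list of hypoxia-responsive genes. Their differences were -2.08 for Slc16a3, -1.83 for Egln3, -1.83 for Ak4, -1.45 for Ankrd37, -1.34 for Pfkfb3 and -1.25 for Pdk1. They were -1.21 for Bnip3, -1.11 for P4ha1, -1.09 for Vegfa, -1.05 for P4ha2, -0.89 for Anxa2 and -0.76 for Higd1a. Groups of 2 arrays were too small for a check of single arrays that stand apart.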

How the results depend on the processing

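The count of genes called in both strains was 214 with the room air arrays alone, 70 with strain as an additive block, between 327 and 545 in the other settings and from 92 to 676 with 1 array left out. In F344 it was 777 with the room air arrays alone and from 80 to 1686 with 1 array left out. In SD it was 7 with array weights and from 0 to 21. The strain difference had 0 genes with the room air arrays alone, with arrays centred on their medians, with every probe set tested and with a trended, robust prior, 4 after another quantile normalization, 2 among genes over the median level, and from 0 to 181. The exposure difference ranged from 18 to 66. The cause of these moves was not tested. With 1 array left out the lone array of a group is assumed to vary like the others.

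Of 75 named genes 48 were called, 21 of these in all 16 fits without 1 array, and 0 called genes changed sign. With 1 array left out, Rlbp1 ranged from -0.05 to 0.10, Vegfa from -0.01 to 0.13 and Rgs5 from -0.50 to 0.17. Groups share replicate numbers that the labels tie to no litter or batch. Deviations of same-numbered room air pools correlated at 0.25 (F344) and 0.52 (SD) between days and from -0.29 to -0.24 across strains, so the numbers were not taken as pairs. With the replicate number within each strain as a block, 490 genes were called for the mean of both strains, 1330 in F344 and 0 in SD. The same block gave 12 genes for the strain difference and 26 for the exposure difference.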

Other observations

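Outside the lists, some genes that changed in room air between the days may interest a reader; they were chosen after their values were seen and were not followed through the alternatives. Among the falls, Foxn4, a factor that readies progenitors to make amacrine and horizontal cells, changed by -0.63 ± 0.11 (limma adjusted p = 0.00654), Lhx9 by -0.45 ± 0.10 (adjusted p = 0.0249), Nfib, which promotes late-born cell types, by -0.36 ± 0.08 (adjusted p = 0.0266), and Ezh2, the Polycomb methyltransferase, by -0.43 ± 0.09 (adjusted p = 0.0207). Foxm1, a transcription factor of mitotic genes, changed by -0.61 ± 0.09 (adjusted p = 0.00305). Uhrf1, which maintains DNA methylation, changed by -0.86 and Chek1 and Brca1, of the response to damaged DNA, by -0.87 and -0.58.

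Among the rises, Slc12a5, the chloride exporter of mature neurons, changed by 0.50 ± 0.12 (adjusted p = 0.0409), Gjd2, the main connexin of neuronal gap junctions, by 0.59 ± 0.12 (adjusted p = 0.0177), and Gnb5, the partner of the protein that ends the G protein signal in photoreceptors and bipolar cells, by 0.61 ± 0.13 (adjusted p = 0.0244). Ckmt1, the mitochondrial creatine kinase, changed by 0.64 ± 0.11 (adjusted p = 0.0055), Snap91 of vesicle recycling by 0.46 and Camk4, a calcium-dependent kinase, by 0.52.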
